A study of Mus musculus with 18 samples.

Results

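Brown adipose tissue (BAT) and epididymal white adipose tissue (eWAT) of obese wildtype (WT) mice were compared, with 3 libraries per depot out of 18 libraries in the series. The members were WT-1, WT-2 and WT-3 of BAT and WT-1, WT-2 and WT-3 of eWAT, as their sample titles name them. Genes of the separate BAT and eWAT tables were joined by symbol. Of 25124 genes, 51 on the Y chromosome and 1857 for which the tables kept different transcripts were left out, so that 23216 genes could be compared. All 6 libraries were poly(A) RNA of male WT mice on a C57BL/6J background, bred from parents heterozygous for a caspase-6 deletion that the WT mice do not carry. The mice had been fed a diet with 60% fat for 12 weeks, started between 10 and 14 weeks of age, and were fasted before collection. The study asked how caspase-6 loss alters fat tissue during diet-induced obesity, and its knockout libraries were not used here. The labels call the libraries biological replicates, and whether the same animals gave both depots was not given in the sources used here.

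Brown adipocytes hold many mitochondria and burn fatty acids to make heat. UCP1, a carrier of their inner mitochondrial membrane, lets protons back into the matrix without ATP synthesis, and noradrenaline from sympathetic nerves switches the process on through beta-adrenergic receptors and cyclic AMP. White adipocytes store triglyceride and secrete hormones such as leptin, and in obesity the epididymal pad takes up many macrophages and lays down matrix. The epididymal pad lies in the abdominal cavity and is covered by mesothelium, whereas the interscapular brown pad lies between muscles of the upper back.

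The proximal promoters of Ucp1, Cox7a1, Slc27a2 and Acadm are shown because these genes stood for 4 functions that were high in BAT: uncoupling, electron transport, fatty acid activation and fatty acid oxidation. Each sequence holds the 250 bases upstream of the RefSeq start on the coding strand, from build GRCm38.p6, and each start is the start of the transcript that was counted in mm10. Capitals mark matches to TGACG (the core of the cyclic AMP response element; reverse complement CGTCA), to CCAAT (reverse complement ATTGG) and to AAGGTCA (the core of the site of estrogen-related receptors; reverse complement TGACCTT), searched on both strands. Ucp1 lies at chr8:83290098-83290347 on the plus strand, with TGACG beginning 147 bases before the start. Cox7a1 lies at chr7:30183921-30184170 on the plus strand, with ATTGG at 137 and at 74 bases. Slc27a2 lies at chr2:126552774-126553023 on the plus strand, with TGACCTT at 220 bases. Acadm lies at chr3:153944644-153944893 on the minus strand, with TGACCTT at 249 and CGTCA at 21 bases.
Ucp1: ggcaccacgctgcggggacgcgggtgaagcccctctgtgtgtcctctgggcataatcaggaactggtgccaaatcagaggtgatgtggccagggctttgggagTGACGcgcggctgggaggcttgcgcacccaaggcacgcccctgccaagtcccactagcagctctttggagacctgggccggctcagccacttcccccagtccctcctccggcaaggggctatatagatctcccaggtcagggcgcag
Cox7a1: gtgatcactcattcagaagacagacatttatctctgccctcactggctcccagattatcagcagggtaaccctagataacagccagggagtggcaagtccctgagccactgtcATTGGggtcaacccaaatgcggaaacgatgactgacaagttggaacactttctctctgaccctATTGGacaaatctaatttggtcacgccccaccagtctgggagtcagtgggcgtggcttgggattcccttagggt
Slc27a2: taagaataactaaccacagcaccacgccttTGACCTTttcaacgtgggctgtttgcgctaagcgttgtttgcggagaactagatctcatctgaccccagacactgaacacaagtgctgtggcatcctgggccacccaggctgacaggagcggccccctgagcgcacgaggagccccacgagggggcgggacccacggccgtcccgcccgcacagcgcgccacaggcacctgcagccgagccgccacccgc
Acadm: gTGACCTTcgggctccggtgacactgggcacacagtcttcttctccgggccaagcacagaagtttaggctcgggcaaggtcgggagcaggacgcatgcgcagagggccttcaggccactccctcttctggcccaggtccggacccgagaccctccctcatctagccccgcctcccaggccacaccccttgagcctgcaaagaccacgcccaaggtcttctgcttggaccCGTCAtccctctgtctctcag

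A promoter sequence whose start lay within 100 bases of the counted transcript was held for 10261 of 13608 genes tested. AAGGTCA, on either strand, was in 6 of 64 promoters of respiratory chain and ATP synthase genes (9.38%), in 1 of 21 of brown adipocyte identity genes, in 1 of 17 of mitochondrial fatty acid oxidation, in 0 of 15 of the tricarboxylic acid cycle and in 2.81% of all genes tested. TGACG was in 28.1% and CCAAT in 39.1% of the same 64 promoters, against 26.5% and 36.1% of all genes tested. These are matches of letters in 250 bases, and the upstream enhancer of Ucp1 lies outside this window.

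Total counts ran from 7803108 to 11381959 in BAT and from 16800043 to 18003880 in eWAT, so low genes carried more sampling error in BAT, and depot, table and depth cannot be told apart. The joined genes held 93.85% to 95.4% of these counts. On the principal components of log2 CPM, the count scaled to the library's total, the first component held 78.71% of the variance and separated the depots, while the second held 13.18% and spread the BAT libraries, which lay at 53.03, -72.99 and 9.96. BAT WT-2 stood apart from the others, and its summed level of 20 skeletal muscle genes was 59453 CPM. The same sum was 213.7 CPM in BAT WT-1, 2657 CPM in BAT WT-3 and between 76.63 and 111.7 CPM in eWAT. BAT WT-2 also had the most lymphocyte RNA of the BAT libraries, with a summed level of 18 T and B cell genes of 195.8 CPM against 33.6 and 31.78 CPM in the others. A fit without BAT WT-2 was therefore added after seeing the data, its counts are given for each list below in which they differ, and the part of muscle RNA in the other results was not tested. The tissue labels fitted the levels of their markers, with Ucp1 high in BAT and at or near 0 in eWAT. Of 15 epididymis and testis genes joined, 1 was expressed enough to be tested, Insl3, and it did not differ beyond its error (log2 fold change 0.04 ± 0.24 SE).

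**Figure D1:**
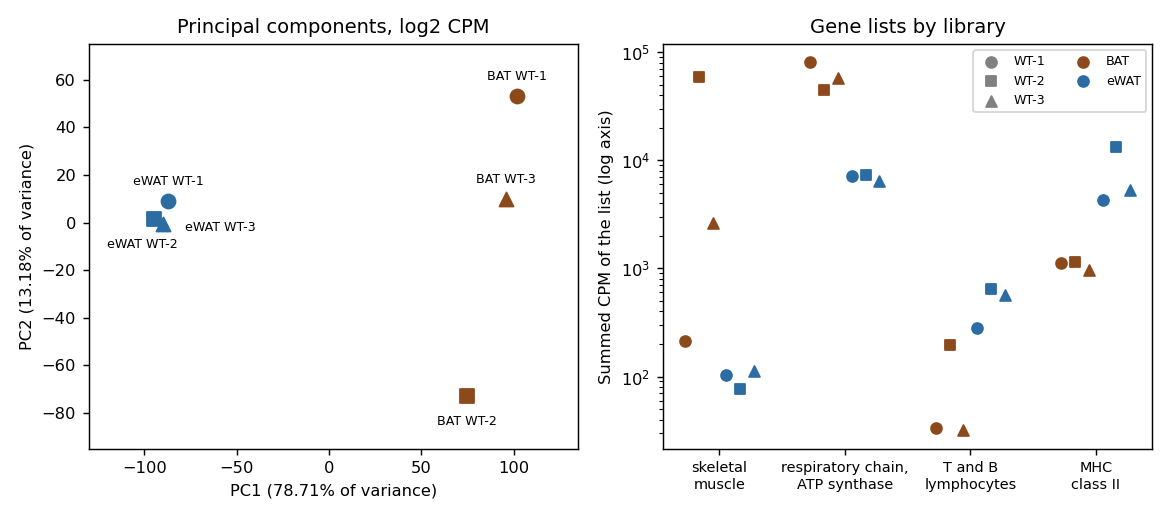
The left panel plots the first and second principal components of log2 CPM over 13608 genes for the 6 libraries, and the right panel plots the summed CPM of 4 gene lists on a log axis, 1 point per library. BAT WT-2 lies at -72.99 on the second component and has 59453 CPM of skeletal muscle genes, and the respiratory chain and ATP synthase genes of all BAT libraries lie above those of all eWAT libraries.

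About as many genes were higher in BAT as in eWAT. Of 13608 genes tested with edgeR's quasi-likelihood test, 6688 (49.1%) were called, which required that the Benjamini-Hochberg adjusted p was under 0.05 and that the depots differed 1.5-fold or more. Of all genes tested, 3182 (23.4%) were higher in BAT and 3506 (25.8%) higher in eWAT, and at a 4-fold minimum 854 (6.28%) and 1368 (10.1%). The 3 libraries of one depot lay wholly above those of the other for 66.7% of genes, with BAT above for 32% and eWAT above for 34.7%, so a call or a lack of overlap is common here and counts of members are read against these shares. The median log2 fold change (BAT minus eWAT) over all genes was -0.02. Scaling by total counts, without the TMM factor, moved it to -0.25 and gave 2417 genes higher in BAT and 4398 higher in eWAT, or 35.47% of calls higher in BAT against 47.58%. In bulk tissue, fewer cells of a type and less RNA per cell cannot be told apart, which applies to every result below. Leaving out BAT WT-2 kept 6368 of the 6688 calls in the same direction and turned 0 of them.

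**Figure D2:**
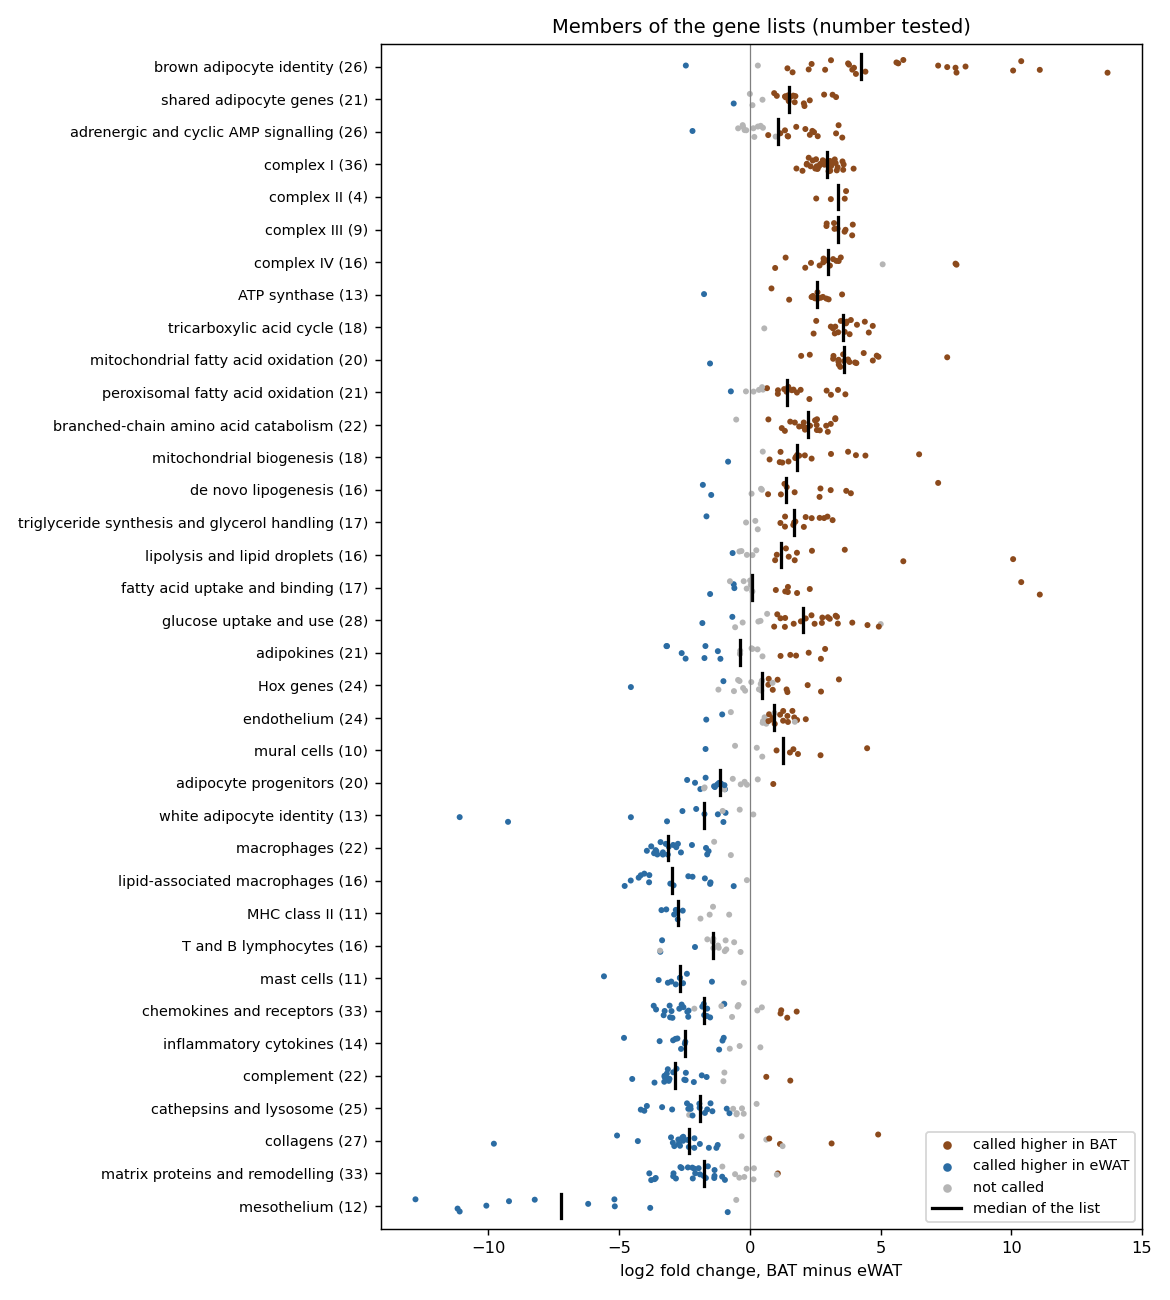
Each point is 1 gene of a named list, placed by its fitted log2 fold change (BAT minus eWAT), with the number of genes tested in parentheses and the list's median as a black bar. Genes of the respiratory chain, tricarboxylic acid cycle and fatty acid oxidation lie to the right, those of macrophages, complement, collagens and mesothelium to the left, and the points beyond -8 include genes with no count in BAT, whose fitted values are not bounds.

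Of the 12 genes with the largest increases in BAT, 6 belonged to the skeletal muscle list (Myh4, Myh1, Ckm, Tnnc2, Atp2a1 and Myh2), and Tcap, Lmod2 and Mybpc1 are also sarcomere genes; the other 3 were Ucp1, Lncbate10 and Slc27a2. Myh4, a fast myosin heavy chain, stood at 10.7, 10029 and 688 CPM in BAT, so that its level rested on BAT WT-2. Of 18 muscle genes tested, 12 were higher in BAT (median log2 fold change 8.81; 12 and 5.25 without BAT WT-2), and 0 were called in edgeR's quasi-likelihood test when any 1 eWAT library was left out. Without BAT WT-2, Ucp1 led, and the 12 also held Fabp3, Lgr6, Cidea, Gldn and Cpn2, beside Lncbate10, Slc27a2, Myh4, Myh1, Ckm and Tnnc2. The myosin heavy chain genes share much sequence, so their separate levels are uncertain. Lncbate10, a long noncoding RNA known from brown adipocytes, was at 57.3, 12.9 and 27.2 CPM in BAT and had no count in eWAT, at least 521-fold higher when eWAT is set to 3 counts over the group. Lgr6, a receptor for R-spondins, was at 127, 81.4 and 145 CPM in BAT and at 0, 0 and 0.287 CPM in eWAT, and it was 10.14 ± 0.67 (SE) higher on the log2 scale (edgeR adjusted p = 3.47e-05). Cpn2, a subunit of carboxypeptidase N, was at 145, 64.9 and 154 CPM in BAT and at no more than 0.269 CPM in eWAT. No library of one depot reached those of the other for these genes.

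Genes that define brown adipocytes were higher in BAT almost throughout. Of 26 tested, 24 were called higher in BAT and 1, Epsti1, higher in eWAT, and the list's median log2 fold change was 4.24 against -0.02 over all genes. Without BAT WT-2 the counts were the same and the median was 4.47, and without eWAT WT-2 the median was 5.01. Ucp1 was at 11384, 4975 and 6830 CPM in BAT and at 0.530, 1.02 and 0.172 CPM in eWAT, from 9, 19 and 3 reads. The lowest BAT library thus stood far above the highest eWAT library, and the log2 fold change was 13.68 ± 0.78 (SE; edgeR adjusted p = 1.74e-05). Ucp1 (NM_009463) spans 83290348 to 83298456 on chromosome 8 of mm10. Cidea, which enlarges lipid droplets by fusing them, was at 2367, 1052 and 2071 CPM in BAT and between 1.49 and 1.83 CPM in eWAT (log2 fold change 10.07 ± 0.42, edgeR adjusted p = 5.36e-06). Slc27a2, which activates and imports very long chain fatty acids, was at 237, 173 and 272 CPM in BAT and at 0.118, 0 and 0.172 CPM in eWAT. BAT WT-2 was the lowest BAT library for each of these, and the depots did not overlap. Dio2, the deiodinase that activates thyroid hormone inside brown fat, was at 57.1, 68.7 and 97.0 CPM against 1.65, 1.29 and 1.60 CPM.

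Transcriptional regulators of brown fat were also higher in BAT, by amounts that ranged widely. Ppargc1a, a coactivator of mitochondrial genes, was at 105, 72.1 and 94.8 CPM in BAT and at 3.54, 4.79 and 4.30 CPM in eWAT, a log2 fold change of 4.42 ± 0.21 (edgeR adjusted p = 6.11e-06). Prdm16, a coregulator of brown fate, was higher by 1.64 ± 0.24 and Ebf2, a transcription factor of brown precursors, by 1.44 ± 0.14 on the log2 scale. Prdm16 was at 28.8, 37.2 and 46.1 CPM in BAT and at 13.8, 8.99 and 13.3 CPM in eWAT, and Ebf2 at 103, 78.6 and 97.9 CPM against 32.6, 32.7 and 37.3 CPM, so eWAT held clear amounts of both. Otop1, a proton channel, rose by 5.68 and Kcnk3, a potassium channel, by 3.11. Adcy3, an adenylyl cyclase, was not called (0.31 ± 0.22, edgeR adjusted p = 0.264). Epsti1 went against the list, at 4.82, 9.89 and 5.51 CPM in BAT and 26.5, 53.8 and 30.9 CPM in eWAT.

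**Figure D3:**
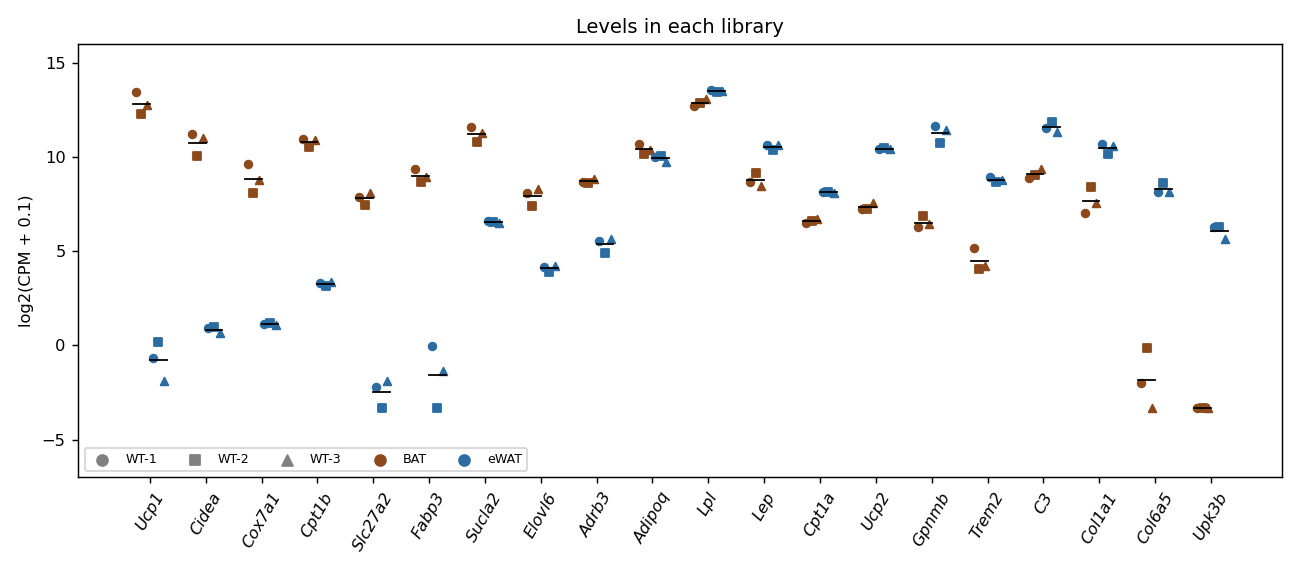
Points show log2 of CPM plus a small constant for 20 genes in each of the 6 libraries, with BAT in brown, eWAT in blue and the mean of each depot as a bar. Ucp1, Cidea, Slc27a2 and Fabp3 are near the floor in eWAT, Col6a5 and Upk3b near it in BAT, and Adipoq and Lpl lie close together in both depots.

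Adrenergic signalling was higher in BAT at the receptors, at the stimulatory G protein and at protein kinase A, and went both ways at the cyclases. Of 26 genes tested, 14 were higher in BAT and 1 in eWAT (median 1.08; 14 and 2 without BAT WT-2, median 1.02). Adrb3, the beta3 receptor of adipocytes, was at 405, 391 and 460 CPM in BAT and at 46.5, 30.0 and 50.9 CPM in eWAT (log2 fold change 3.30 ± 0.22, edgeR adjusted p = 1.61e-05). The lowest BAT library thus lay far above the highest eWAT library. Adrb1 rose by 3.54 ± 0.37, from 3.18, 7.38 and 3.32 CPM in eWAT to 63.9, 58.0 and 40.3 CPM, and Adra1a by 2.46 ± 0.16. Gnas, the stimulatory G protein subunit, rose by 2.30, Prkaca, a catalytic subunit of protein kinase A, by 1.47 and Prkar2b, its adipocyte regulatory subunit, by 2.39. Adcy5 was the member higher in eWAT, at 14.01, 57.9 and 20.1 CPM in BAT and 149, 125 and 149 CPM in eWAT (-2.19 ± 0.54, edgeR adjusted p = 0.015; -2.997 without BAT WT-2). Phosphodiesterases, which break down cyclic AMP, were also higher in BAT: Pde4d rose by 3.40, Pde4a by 1.78 and Pde3b by 1.45.

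The nuclear genes of the respiratory chain and ATP synthase were higher in BAT as a body. Of 78 tested, 76 were higher in BAT and 1 in eWAT, with a median of 2.94 (3.20 without BAT WT-2). Their summed level was 80386, 44704 and 57423 CPM in BAT and 7167, 7267 and 6445 CPM in eWAT, so the BAT libraries differed among themselves more than the eWAT libraries did. By complex, 36 of 36 genes of complex I (NADH dehydrogenase; median 2.95), 4 of 4 of complex II (3.37), 9 of 9 of complex III (3.36), 15 of 16 of complex IV (2.99) and 12 of 13 of ATP synthase (2.59) were higher in BAT. Atp5b, the catalytic beta subunit of ATP synthase, was at 12076, 7336 and 10310 CPM in BAT and at 874, 863 and 835 CPM in eWAT (log2 fold change 3.53 ± 0.22, edgeR adjusted p = 1.22e-05). Ndufv1, the NADH-binding subunit of complex I, was at 1662, 1013 and 1333 CPM against 84.6, 86.8 and 84.1 CPM (3.97 ± 0.22). Neither gene overlapped between the depots. The least changed subunits were Atp5g3 (0.83 ± 0.21), which encodes a copy of the c ring, and Cox7a2l (0.97 ± 0.22), a supercomplex factor.

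A pair of genes stood outside this pattern. Atpif1, the inhibitor of ATP synthase, was higher in eWAT, at 31.0, 19.7 and 20.4 CPM in BAT and 92.5, 78.0 and 67.4 CPM in eWAT (log2 fold change -1.75 ± 0.21, edgeR adjusted p = 0.000282; -1.59 without BAT WT-2). Cox6a2, a subunit known from heart and skeletal muscle, was not called, at 0.753, 308 and 7.23 CPM in BAT and 3.54, 3.18 and 2.64 CPM in eWAT, where the level of BAT WT-2 moved with its muscle RNA.

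The tricarboxylic acid cycle and fatty acid oxidation, which feed the chain, were higher in BAT at nearly every step. Of 18 genes of the cycle, 17 were higher in BAT (median 3.56), and all 18 were called without BAT WT-2. Sucla2, a subunit of succinyl-CoA synthetase, was at 3081, 1793 and 2501 CPM in BAT and at 97.2, 94.6 and 91.1 CPM in eWAT (4.70 ± 0.24, edgeR adjusted p = 7.03e-06). Fh1, fumarase, was at 1157, 723 and 960 CPM against 67.7, 74.4 and 59.1 CPM (3.82 ± 0.22). Both left a wide gap between the depots. Pcx, pyruvate carboxylase, which refills the cycle and also serves fatty acid synthesis, missed the fold threshold (0.56 ± 0.15; 0.67 and called without BAT WT-2), with 650, 587 and 737 CPM in BAT and 447, 486 and 410 CPM in eWAT.

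Of 20 genes of mitochondrial fatty acid oxidation, 19 were higher in BAT and 1 in eWAT (median 3.59). Acadvl and Hadhb, which act on long acyl chains, rose by 4.92 ± 0.24 and 4.86 ± 0.31, and Acadm, the medium-chain dehydrogenase, by 3.39 ± 0.20 from 329, 262 and 300 CPM to 3553, 2498 and 3278 CPM. The exception was Cpt1a, a carnitine palmitoyltransferase that admits long-chain fatty acids to mitochondria, at 91.3, 97.8 and 106 CPM in BAT and 283, 286 and 275 CPM in eWAT (-1.52 ± 0.12, edgeR adjusted p = 3.24e-05). Its isoform Cpt1b went the other way, at 1975, 1482 and 1903 CPM in BAT and 9.67, 8.78 and 10.1 CPM in eWAT (7.55 ± 0.22, edgeR adjusted p = 5.36e-06). Of 21 genes of peroxisomal oxidation, 15 were higher in BAT and 1 in eWAT (median 1.41; 17 and 1 without BAT WT-2). Phyh, which starts alpha oxidation of phytanic acid, led it with 3.66 ± 0.20, followed by Ehhadh (3.38 ± 0.15).

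Several gene families switched their member between the depots when levels were compared per length, as RPKM, which divides CPM by the transcript's length in kb. Cox7a1 made up 65.6%, 65.7% and 66.6% of the summed Cox7a1 and Cox7a2 level in the BAT libraries and 5.31%, 5.47% and 6.51% in the eWAT libraries. Cox7a1 and Cox7a2 are alternative subunits of cytochrome c oxidase, and although Cox7a2 itself was 2.91 higher on the log2 scale in BAT, Cox7a1 was 7.91 higher. Cox8b had a mean share of 68.3% ± 2.51 (SD, n = 3) of Cox8b and Cox8a in BAT and 4.58% ± 1.40 in eWAT. Cpt1b had 96.4% ± 0.615 of the Cpt1b and Cpt1a level in BAT and 4.81% ± 0.417 in eWAT, and Ucp1 had 97.6% ± 0.898 of Ucp1 and Ucp2 against 0.0394% ± 0.0286. Ucp2, a carrier abundant in immune cells, was at 152, 149 and 188 CPM in BAT and 1360, 1420 and 1392 CPM in eWAT.

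In other families the mixture shifted by amounts that differed from family to family. Ldhb, the lactate dehydrogenase subunit of oxidative tissue, made up 34.2% ± 3.82 of Ldhb and Ldha in BAT and 4.18% ± 0.469 in eWAT, and Cidea made up 59.9% ± 7.68 against 0.158% ± 0.0259 of Cidea and Cidec. Elovl3, a fatty acid elongase induced by cold, had 47.8% ± 5.22 of Elovl3 and Elovl6 in BAT and 8.67% ± 2.37 in eWAT. Hk2 had 76.8% ± 6.18 of the hexokinase pair Hk2 and Hk1 in BAT and 39.7% ± 0.780 in eWAT, and Acsl5 had 2.65% ± 0.678 of Acsl5 and Acsl1 in BAT and 12.8% ± 0.731 in eWAT. The shares of Atp2a1, Ckb, Cox6a2 and Slc25a4 in BAT ran with muscle RNA: Atp2a1, the calcium pump of fast muscle, made up 4.39%, 91.4% and 58.6% of Atp2a1 and Atp2a2.

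**Figure D4:**
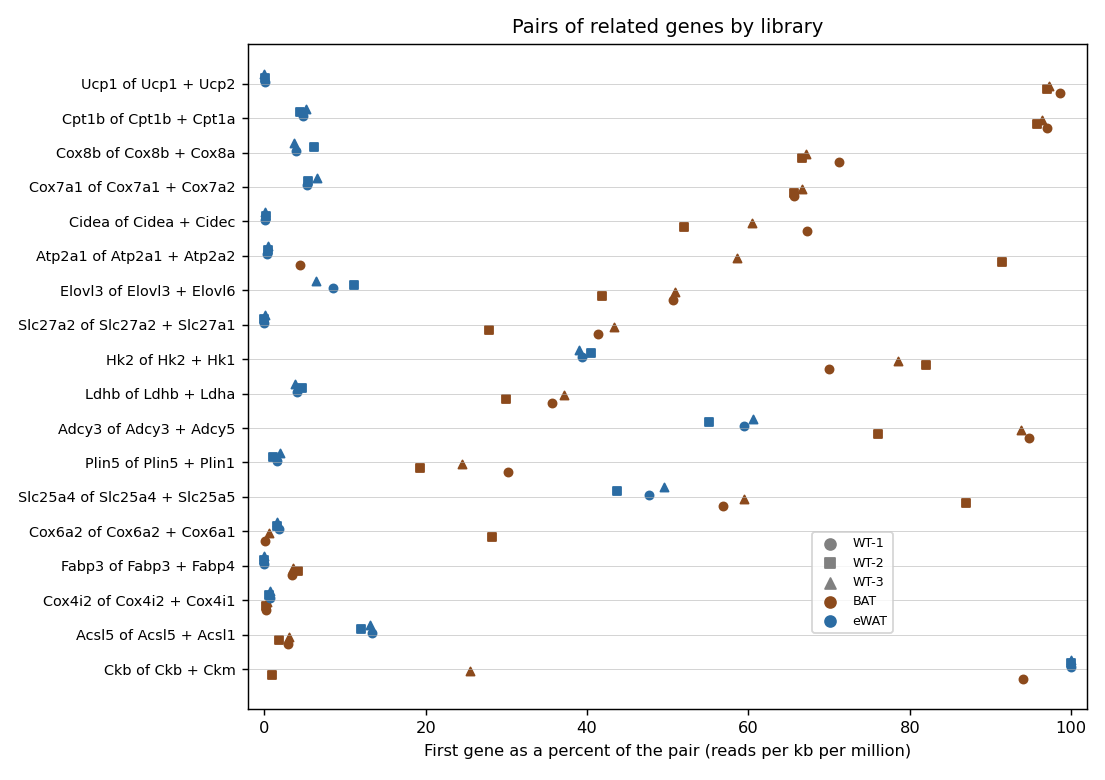
Each line shows the first gene of a pair as a percent of the pair's summed RPKM, with a point for each library, BAT in brown and eWAT in blue. Ucp1, Cpt1b, Cox8b and Cox7a1 dominate in BAT and are minor in eWAT, while the BAT points for Atp2a1 and Ckb are scattered from library to library.

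Other mitochondrial routes were higher in BAT too. All but 1 of 22 genes of branched-chain amino acid catabolism were called higher in BAT (median 2.23), led by Bckdha, a subunit of the rate-limiting branched-chain keto acid dehydrogenase, at 1066, 581 and 848 CPM in BAT and 87.2, 86.9 and 83.8 CPM in eWAT (3.27 ± 0.24, edgeR adjusted p = 2.15e-05). Slc25a44, which carries branched-chain amino acids into brown fat mitochondria, rose by 1.34 ± 0.11, and Bcat1, the cytosolic transaminase, did not reach the fold threshold (-0.52 ± 0.18). Of 18 genes of mitochondrial biogenesis, 16 were higher in BAT (median 1.79), with Tfam, the packaging factor of mitochondrial DNA, higher by 1.48 and Pprc1, a coactivator, higher in eWAT (-0.83). Among 14 uncoupling and carrier proteins, 10 were higher in BAT and 1, Ucp2, in eWAT (11 and 1 without BAT WT-2). Slc25a34 rose by 6.53 ± 0.33 and Slc25a42, a coenzyme A carrier, by 4.39 ± 0.19, and Ucp3 was at 253, 337 and 226 CPM in BAT and 20.04, 21.2 and 17.1 CPM in eWAT.

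Most tested genes listed for the creatine cycle, a heat-producing route that does not need UCP1, lay the other way. Of 8 genes listed, 5 were tested, and Alpl was left out because the tables kept different transcripts. Of the 5, 4 were higher in eWAT: Gatm and Gamt, which make creatine, Slc6a8, which imports it, and Ckb, the brain-type creatine kinase. Gatm, Gamt and Slc6a8 serve the supply of creatine, so these genes say little about the cycle itself. Gatm was at 11.3, 11 and 6.08 CPM in BAT and 58.2, 74.1 and 55.7 CPM in eWAT (-2.73 ± 0.25, edgeR adjusted p = 7.04e-05), and Ckb at 74.6, 38.1 and 58.2 CPM against 294, 223 and 262 CPM (-2.19 ± 0.25). The libraries of the depots did not overlap for either. Ckm, the muscle kinase, was higher in BAT, at 4.52, 3893 and 163 CPM, in parallel with muscle RNA. Of 8 genes of calcium cycling, 5 were higher in BAT, with a median of 3.88 that fell to 2.08 without BAT WT-2, where Atp2a3 was also called higher in eWAT, and 3 were called higher in BAT when any 1 eWAT library was left out. Ryr2, the ryanodine receptor of heart, was lowest in the BAT library with the most muscle RNA, at 36.2, 23.4 and 48.3 CPM in BAT against 7.90, 3.77 and 4.58 CPM (2.73 ± 0.36), and Atp2a2 was higher by 1.84, or 1.01 without BAT WT-2.

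Genes that build lipid were mostly higher in BAT. Of 16 genes of de novo lipogenesis, 11 were higher in BAT and 2 in eWAT (median 1.37; 13 and 2 without BAT WT-2). Elovl6, which extends palmitate, was at 269, 166 and 320 CPM in BAT and 18.1, 15.02 and 18.6 CPM in eWAT (3.87 ± 0.26, edgeR adjusted p = 1.62e-05), and Acacb, the acetyl-CoA carboxylase at mitochondria, rose by 3.69 ± 0.23. Fasn, fatty acid synthase, was at 1825, 1569 and 3084 CPM in BAT against 866, 897 and 818 CPM (1.33 ± 0.26). Acly, which makes cytosolic acetyl-CoA, was at 232, 175 and 335 CPM in BAT and 191, 187 and 172 CPM in eWAT, overlapped between the depots and was not called (0.43 ± 0.23; called without BAT WT-2 at 0.67), and Scd2 (-1.47) and Elovl1 (-1.79) were higher in eWAT. Of 17 genes of triglyceride synthesis and glycerol handling, 13 were higher in BAT and Mogat2 in eWAT (median 1.70). Gpd1, which makes glycerol 3-phosphate, was at 5237, 3188 and 5233 CPM against 562, 631 and 549 CPM (2.97 ± 0.23), and Pck1, phosphoenolpyruvate carboxykinase, at 4341, 4818 and 5758 CPM against 577, 537 and 546 CPM (3.17 ± 0.17).

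Lipolysis and droplet coats were mixed. Of 16 genes, 10 were higher in BAT and Hsd17b11 in eWAT (median 1.21), but Hsd17b11 fell short of the 1.5-fold threshold without BAT WT-2 (-0.54). Pnpla2, adipose triglyceride lipase, was at 3427, 3079 and 3454 CPM in BAT and 1017, 880 and 1127 CPM in eWAT (1.72 ± 0.16, edgeR adjusted p = 7.09e-05), and Lipe, hormone-sensitive lipase, rose by 1.38 ± 0.15. G0s2, an inhibitor of Pnpla2, rose by 2.38, and Plin5, the coat protein that ties droplets to mitochondria, by 5.87 ± 0.31 from 10.6, 7.43 and 13.4 CPM to 738, 449 and 656 CPM. Plin2, Plin3, Plin4, Cidec and Hilpda overlapped between the depots and were not called, at log2 fold changes between -0.39 and 0.25, although Plin4 was called higher in eWAT without BAT WT-2 (-0.71).

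Of 17 genes of fatty acid uptake, 8 were higher in BAT and 3 in eWAT (median 0.10; 8 and 1 without BAT WT-2, where Lpl and Acsl4 lost their calls). Fabp3, the heart-type fatty acid binding protein, was at 658, 412 and 491 CPM in BAT and 0.884, 0 and 0.287 CPM in eWAT (10.38 ± 0.84, edgeR adjusted p = 0.000144). Lpl, lipoprotein lipase, was higher in eWAT, at 6780, 7338 and 8503 CPM in BAT and 11974, 11198 and 11418 CPM in eWAT (-0.61 ± 0.15, edgeR adjusted p = 0.0103). It missed the 1.5-fold threshold without BAT WT-1 (-0.54) or BAT WT-2 (-0.55), and with the size factors of DESeq2 (-0.584). Without eWAT WT-1, Lpl passed that threshold (-0.59) but not that of the p-value (edgeR adjusted p = 0.0522). Its anchor on capillaries, Gpihbp1, was higher in BAT (1.46 ± 0.20). Fabp4, the adipocyte binding protein, was the most abundant gene per length in both depots, with mean levels of 20275 RPKM in BAT and 7914 RPKM in eWAT.

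Genes of glucose use were higher in BAT at several steps. Of 28 genes, 20 were higher in BAT and 2, Slc2a1 and Pdk3, in eWAT (median 2.05; 21 and 3 without BAT WT-2). The glucose transporter gene Slc2a4 and Pkm were left out because the tables kept different transcripts. Gapdh was among those higher in BAT, but its counts were low, as given at the end, and its call was lost without BAT WT-2 (1.165). Pfkl, the liver-type phosphofructokinase, was at 991, 525 and 1063 CPM in BAT and 90.2, 88.4 and 86.0 CPM in eWAT (3.29 ± 0.28, edgeR adjusted p = 4.27e-05), and Ldhb rose by 4.94 ± 0.24. Pdha1, Pdhb and Dlat, the subunits of pyruvate dehydrogenase, rose by 3.37, 3.34 and 3.06, and Pdk4, the kinase that switches this complex off during fasting, was at 3643, 4693 and 4015 CPM against 320, 217 and 279 CPM (3.92 ± 0.22). Pfkm and Eno3, which are muscle isoforms, were high in BAT WT-2 (1073 and 873 CPM), and Pfkm's log2 fold change of 4.50 fell to 2.41 without it.

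White adipocyte genes and several secreted factors were higher in eWAT. Of 13 white identity genes, 10 were higher in eWAT and 0 in BAT (median -1.73; 12 and -1.92 without BAT WT-2). Lep, leptin, was at 411, 578 and 355 CPM in BAT and 1569, 1313 and 1580 CPM in eWAT (-1.73 ± 0.21, edgeR adjusted p = 0.000286), so BAT expressed it at a lower but clear level. Mest, an imprinted gene of adipocyte expansion, was at 63.9, 188 and 54.0 CPM against 663, 563 and 596 CPM (-2.57 ± 0.50). BAT WT-2 was the highest BAT library for both, and for Slc7a10, Agt and Dpt as well. Slc7a10, a neutral amino acid transporter of white adipocytes, was at 20.04, 51.4 and 20.2 CPM in BAT and 134, 124 and 123 CPM in eWAT (-2.05 ± 0.38). Of 21 adipokine genes, 6 were higher in BAT and 8 in eWAT (median -0.36; 7 and 8 without BAT WT-2): Nrg4, a factor released by brown fat, rose by 2.88 and Nampt by 1.77 in BAT, while Sfrp5 (-3.19), Fbn1, the precursor of asprosin (-2.60), and Metrnl (-2.45) were higher in eWAT.

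Genes that brown and white adipocytes share leaned to BAT, with 17 of 21 higher there and Lpl higher in eWAT (median 1.49; 18 and 0 without BAT WT-2). Pparg, the master regulator of adipocytes, was at 362, 227 and 362 CPM in BAT and 116, 121 and 108 CPM in eWAT (1.46 ± 0.20, edgeR adjusted p = 0.000466). Adipoq, adiponectin, was at 1671, 1134 and 1314 CPM in BAT and 1016, 1073 and 849 CPM in eWAT and was not called (0.49 ± 0.19, edgeR adjusted p = 0.0569), but it was called higher in BAT without BAT WT-2 (0.65). Cidec and Car3 did not differ beyond their errors (0.10 ± 0.17 and 0.005 ± 0.25), with Car3, carbonic anhydrase, at 2183 CPM or more in all 6 libraries.

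Hox genes keep the record of position along the body axis, and those called divided by paralogue group, while 13 of 24 were not called. Of 24 tested, 9 were higher in BAT, all of groups 2 to 7, and 2 were higher in eWAT, of groups 8 and 9. Hoxa4 led in BAT, at 30.0, 23.3 and 20.7 CPM against 2.06, 1.89 and 2.98 CPM in eWAT (3.41 ± 0.25, edgeR adjusted p = 2.40e-05). Hoxc5 was at 67.8, 38.2 and 55.0 CPM against 8.31, 7.11 and 8.88 CPM (2.73 ± 0.23), and Hoxa5 at 61.6, 36.8 and 51.1 CPM against 9.96, 7.86 and 14.3 CPM (2.22 ± 0.27). Hoxc4, Hoxa2, Hoxb2, Hoxa7, Hoxc6 and Hoxa3 were higher by 1.44, 1.41, 1.07, 0.88, 0.73 and 0.71, and Hoxb2, Hoxa7, Hoxc6 and Hoxa3 lost their calls without eWAT WT-2, which left 5 Hox genes higher in BAT. Scaling by total counts also ended the calls of Hoxa7, Hoxc6 and Hoxa3. In eWAT, Hoxc8 was at 39.1, 37.1 and 42.6 CPM against 10.6, 22.7 and 25.6 CPM in BAT (-1.01 ± 0.29, edgeR adjusted p = 0.0201), a call that was lost without eWAT WT-1 (-1.02) or eWAT WT-3 (-0.96). Hoxc9 was at 3.60, 1.56 and 3.84 CPM in eWAT and had 1 read in each BAT library, a ratio of 24.9 with a 95% counting interval of 8.38 to 122. The HoxC cluster thus ran from higher in BAT at Hoxc4 and Hoxc5 to higher in eWAT at Hoxc9, with the smaller differences of Hoxc6 and Hoxc8 between them. Hoxa6, Hoxb3 to Hoxb9, Hoxd3, Hoxd4, Hoxd8 and Hoxd9 were not called, and without BAT WT-2 Hoxb8 (-1.06) and Hoxd3 (-2.01) were also higher in eWAT. Hoxd4 was called higher in eWAT with total counts (-0.68) or without BAT WT-1 (-0.66), and the latter run called Hoxa6 higher in BAT (0.68). In these runs Hoxd3 and Hoxd4 thus went against the called genes of the other low groups.

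**Figure D5:**
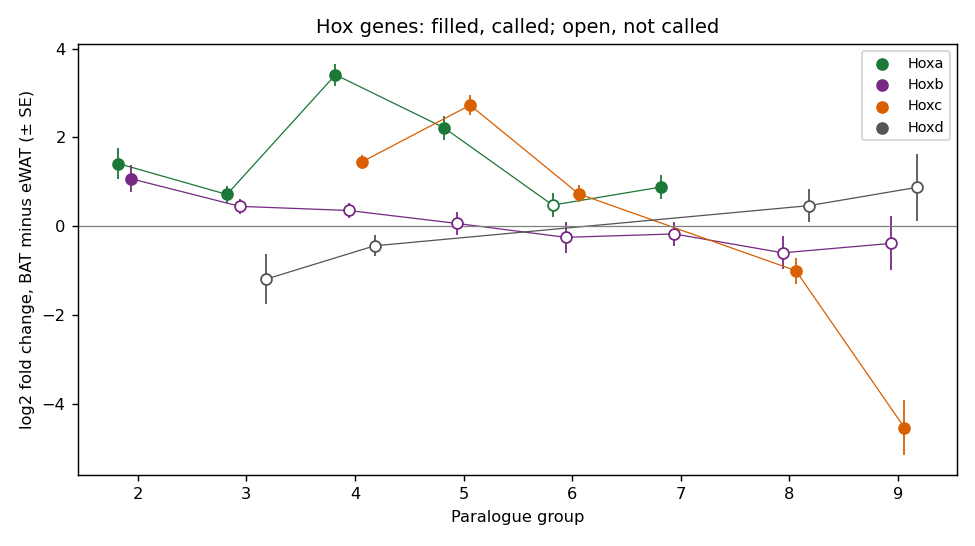
Points show the fitted log2 fold change (BAT minus eWAT) with its standard error for the Hox genes of paralogue groups 2 to 9, coloured by cluster, with called genes filled. Hoxa4 (3.41), Hoxc5 (2.73) and Hoxa5 (2.22) are highest, and Hoxc9, whose fitted value rests on 3 reads in BAT, is lowest.

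Other transcription factors of position divided more sharply. Of 25 tested, 14 were higher in BAT and 7 in eWAT (14 and 8 without BAT WT-2). Zic1, a marker of brown fat from the somites, was at 21.7, 12.4 and 9.29 CPM in BAT and had 2 reads in all of eWAT, a ratio of 365 (95% counting interval 100.3 to 3026). Tbx5 was at 8.59, 7.67 and 8.03 CPM in BAT, also with 2 reads in eWAT (ratio 213, interval 58.2 to 1770), and Zic4 was at least 18.2-fold higher in BAT, with no read in eWAT. Shox2, a homeobox factor of the limb, was higher by 3.54 ± 0.63. Tbx15 was at 6.33, 95.7 and 12.4 CPM in BAT, highest in the library with the most muscle RNA, and remained higher in BAT without it (6.31). In eWAT, Tcf21 was at 4.30, 6.25 and 6.82 CPM and Gata5 at 1.65, 2.48 and 2.75 CPM, with no read in BAT, at least 49.0-fold and 19.4-fold higher. Gata6, expressed by peritoneal macrophages and mesothelium, was at 15.4, 14.1 and 17.9 CPM against 3.47, 3.23 and 2.30 CPM.

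Macrophage genes were higher in eWAT, and none was called higher in BAT. Of 22 tested, 20 were higher in eWAT and 0 in BAT (median -3.11, all 22 without BAT WT-2), and their summed level was 10479 to 13367 CPM in eWAT and 1261 to 1605 CPM in BAT. Cd68, a lysosomal glycoprotein of macrophages, was at 71.4, 54.9 and 57.8 CPM in BAT and 1007, 866 and 939 CPM in eWAT (-3.93 ± 0.17, edgeR adjusted p = 5.36e-06), and Adgre1, which encodes F4/80, at 62.1, 38.5 and 44.3 CPM against 577, 745 and 648 CPM (-3.77 ± 0.23). The lowest eWAT library was far above the highest BAT library for both. Lyve1 and Timd4, markers of resident macrophages, overlapped between the depots and were not called (-0.72 ± 0.45 and -1.36 ± 0.79; -1.36 and -2.99 and called without BAT WT-2), whereas Folr2, another such marker, was higher in eWAT (-3.57 ± 0.19).

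Genes of lipid-associated macrophages, which gather around dying adipocytes in obese fat, were also higher in eWAT. Of 16, 15 were higher in eWAT (median -2.97; 14 without BAT WT-2, since Lpl was lost). Gpnmb, a glycoprotein of these cells, was at 78.1, 115 and 85.9 CPM in BAT and 3163, 1724 and 2788 CPM in eWAT (-4.78 ± 0.30, edgeR adjusted p = 1.21e-05). Trem2, the lipid receptor that marks them, was at 35.9, 16.8 and 18.1 CPM against 488, 410 and 438 CPM (-4.25 ± 0.32), and Itgax, which encodes CD11c, at 19.9, 19.3 and 19.3 CPM against 525, 407 and 436 CPM (-4.55 ± 0.16). Atp6v0d2, a proton pump subunit of such cells, was lower in BAT by the same order (-4.17 ± 0.18). Plin2, a droplet coat protein that adipocytes also express, was not called (-0.11 ± 0.23). Of 25 cathepsin and lysosome genes, 18 were higher in eWAT and 0 in BAT (median -1.92; 20 and 0 without BAT WT-2): Ctsk (-4.03 ± 0.32) and Ctss (-3.35 ± 0.21) were among them, while Lamp1 (-0.50 ± 0.16) and Ctsf (0.26 ± 0.11) were not called.

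Antigen presentation and lymphocyte genes varied between libraries of a depot. The sum of 11 MHC class II genes was 4332, 13307 and 5286 CPM in eWAT and 1132, 1136 and 969 CPM in BAT, and 7 were higher in eWAT (median -2.75, or -1.99 without eWAT WT-2; all 11 without BAT WT-2). Cd74, the invariant chain, was at 396, 469 and 408 CPM in BAT and 1862, 5276 and 2298 CPM in eWAT (-2.89 ± 0.40, edgeR adjusted p = 0.000741), with eWAT WT-2 the highest. Of 16 genes listed for T and B cells, 3 were called, all higher in eWAT: Il7r, Nkg7 and Klrb1c. Nkg7 and Klrb1c are genes of natural killer cells as well, and Cd3d, Cd3e, Cd3g, Cd4, Cd5, Lck and Blk were not called. Without BAT WT-2, 12 were called higher in eWAT, and these T and B cell genes were among them. In BAT WT-2 the B cell gene Ms4a1 stood at 17.6 CPM against 0.301 and 0.803 CPM in the other BAT libraries. In eWAT Ms4a1 was at 2.77, 13.9 and 34.6 CPM, so the depots overlapped only through BAT WT-2.

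Chemokines, cytokines and complement leaned to eWAT. Of 33 chemokines and receptors, 21 were higher in eWAT and 4 in BAT (median -1.76; 19 and 4 without BAT WT-2), the 4 being Cxcl12, Cxcl14, Cx3cl1 and the decoy receptor Ackr3. Ccl9 was at 99.3, 71.7 and 62.4 CPM in BAT and 638, 629 and 659 CPM in eWAT (-3.05 ± 0.20, edgeR adjusted p = 1.47e-05), and Ccl2, the monocyte attractant, was not called (-0.99 ± 0.50). Of 14 cytokines, 11 were higher in eWAT (median -2.47). Tnf was at 0.904, 0.505 and 0.459 CPM in BAT and 4.42, 8.62 and 6.99 CPM in eWAT (-3.45 ± 0.42), and Il33, an alarmin of stromal cells, at 2.56, 7.57 and 2.52 CPM against 30.7, 28.9 and 28.4 CPM (-2.77 ± 0.41). Il1b was at no more than 1.51 CPM in any library and was not called (-0.39 ± 0.60). Of 22 complement genes, 18 were higher in eWAT and 2 in BAT (median -2.86; 20 and 2 without BAT WT-2), C3 at 479, 518 and 651 CPM in BAT and 3030, 3714 and 2584 CPM in eWAT (-2.50 ± 0.21) and C7 by -4.49 ± 0.36. Cfd, adipsin, and Cd59a, an inhibitor of lysis, were the members higher in BAT (1.55 ± 0.19 and 0.63 ± 0.18), and the call of Cd59a was lost without BAT WT-1 (0.52), eWAT WT-2 (0.49) or eWAT WT-3 (0.64).

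The extracellular matrix was higher in eWAT across families. Of 27 collagens, 20 were higher in eWAT and 4 in BAT (median -2.33; 20 and 3 without BAT WT-2). Col6a5, a chain of the microfibril collagen VI, was at 278, 397 and 277 CPM in eWAT and had 1, 8 and 0 reads in BAT, or 0.151, 0.807 and 0 CPM (-9.78 ± 0.62, edgeR adjusted p = 2.81e-05). The main fibrillar chain Col1a1 was at 128, 338 and 191 CPM in BAT and 1670, 1123 and 1514 CPM in eWAT (-2.71 ± 0.37), and Col3a1 at 609, 729 and 560 CPM against 4382, 3033 and 3636 CPM (-2.54 ± 0.20). The basement membrane chains Col4a1 and Col4a2 differed less (-1.28 ± 0.15 and -1.22 ± 0.14). Col27a1 was the most abundant of the 4 that were higher in BAT, at 99.6, 96.2 and 179 CPM against 15.3, 14.7 and 12.9 CPM (3.13 ± 0.27), and the others were Col13a1 (4.91), Col4a3 (1.16, lost without BAT WT-2 at 1.15) and Col12a1 (0.75). Of 33 matrix proteins and remodelling enzymes, 24 were higher in eWAT and Timp4, an inhibitor of metalloproteases, in BAT (median -1.76; 25 and 1 without BAT WT-2). Fn1, fibronectin, was at 84.2, 190 and 91.5 CPM in BAT and 1707, 1387 and 1449 CPM in eWAT (-3.63 ± 0.34).

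Of the other stromal cells, progenitors were higher in eWAT and vessels in BAT. Among 20 adipocyte progenitor genes, 11 were higher in eWAT and F3, tissue factor, in BAT (median -1.14; 15 and 1 without BAT WT-2). Pdgfra, the receptor that defines these cells, was at 40.2, 53.7 and 32.01 CPM in BAT and 163, 148 and 156 CPM in eWAT (-1.89 ± 0.19, edgeR adjusted p = 0.000106), while Pi16 and Dpp4 were highest among BAT libraries in WT-2 (114 and 27.0 CPM) and were not called, but were called without it (-1.95 and -3.03). Of 24 endothelial genes, 15 were higher in BAT and 2 in eWAT (median 0.92; 18 and 3 without BAT WT-2). Kdr, the VEGF receptor, was at 232, 166 and 207 CPM against 69.4, 62.0 and 63.7 CPM (1.63 ± 0.15) and Rgcc at 501, 305 and 396 CPM against 122, 105 and 116 CPM (1.81 ± 0.20). Vwf, von Willebrand factor of larger vessels, and Plvap, of fenestrated ones, were higher in eWAT (-1.05 ± 0.13 and -1.66 ± 0.22). Of 10 mural genes, 6 were higher in BAT, among them the pericyte gene Rgs5 (2.71 ± 0.21), and Acta2, smooth muscle actin, was higher in eWAT (-1.69 ± 0.27). Without BAT WT-2 the mural counts were 5 and 2, with Cnn1 no longer called and Tagln called higher in eWAT.

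Mesothelial genes had the lowest median of the lists named here. Of 12 tested, 11 were higher in eWAT (median -7.20, or -5.37 with the 6 genes that had no read in BAT set to their bound; all 12 without BAT WT-2, median -8.43). Upk3b, a uroplakin of the mesothelial surface on chromosome 5 of mm10 (136038496 to 136044993), was at 77.1, 76.6 and 49.2 CPM in eWAT and had no read in BAT, at least 570-fold higher. Wt1, the transcription factor of mesothelium and visceral fat precursors, was at 18.8, 25.2 and 18.7 CPM (at least 177-fold), Upk1b at 27.2, 25.4 and 13.8 CPM (at least 186-fold) and Bnc1 at 12.1, 11.5 and 7.28 CPM (at least 86.6-fold). The keratins Krt7 and Krt8 also had no read in BAT, and Krt19 was lower there (log2 fold change -5.17 ± 0.63). Igfbp5, which other cells express as well, was not called (-0.52 ± 0.30), and was called without BAT WT-2 (-0.93). eWAT WT-3 was the lowest eWAT library for Upk3b, Upk1b, Krt7, Krt8 and Bnc1. Among the 12 genes with the largest differences toward eWAT were also Lrp2, an endocytic receptor (at least 104-fold), Mir7678 (at least 45.0-fold), Pkhd1l1 (ratio 447, 95% counting interval 123 to 3689) and Alox15, a lipoxygenase (ratio 240, interval 42.9 to 9509), which stood at 15.5, 11.2 and 1.95 CPM. Mir7678, a short microRNA entry, had 175, 71 and 37 reads in eWAT, and reads of an overlapping gene cannot be told apart from its own.

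The genes that the study followed in fat tissue were also measured in both depots. Of 19 genes for caspases, their substrates and AMP-activated kinase, 6 were higher in BAT and 6 in eWAT (7 and 8 without BAT WT-2, where Prkaa1 was also higher in BAT and Prkab2 and Prkag3 in eWAT). Casp6 was at 21.9, 12.8 and 15.95 CPM in BAT and 18.98, 22.7 and 18.97 CPM in eWAT, overlapped between the depots and was not called (-0.27 ± 0.21, edgeR adjusted p = 0.314). Sp1, the transcription factor cleaved by caspases, was at 101, 105 and 114 CPM against 109, 116 and 116 CPM (-0.09 ± 0.11). Casp1 and Casp4, caspases of inflammasomes, were higher in eWAT (-3.16 ± 0.21 and -2.04 ± 0.25), as was Casp8 (-1.22 ± 0.14). Il6 was at no more than 0.753 CPM and Ifng at no more than 1.35 CPM in any library, too low to be tested. Of the AMP-activated kinase genes, Prkaa2 was higher in BAT by 3.87, or 2.95 without BAT WT-2, and Prkag2 by 1.52, while Prkaa1 missed the fold threshold (0.48 ± 0.14) and reached it without BAT WT-2 (0.65).

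Per length, the most abundant genes of BAT after Fabp4 were Scd1 (5680 RPKM), Atp5b (5307), Ucp1 (4725), Cox8b (4512), Ndufa4 (2697), Aldoa (2664), Dbi (2590), Cox4i1 (2541) and Acta1 (2392 RPKM, from BAT WT-2). In eWAT they were Actb (3830 RPKM), B2m (3682), Tmsb4x (3660), Ctsd (2910), Lpl (2856), Hp (2634), Psap (2609), Scd1 (2485) and Lyz2 (2261). Among these, Atp5b, Cox8b, Ndufa4 and Cox4i1 belong to the respiratory chain and ATP synthase, Actb and Tmsb4x to the actin cytoskeleton, and Ctsd, Psap and Lyz2 to lysosomes. Every gene of these lists other than Acta1 was called, in the direction its levels show.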

How the data were processed

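Poly(A) RNA libraries of BAT and eWAT from WT mice were analysed as the raw counts the authors deposited, 1 table per depot. Per the study's methods, reads were sequenced on a NextSeq instrument and aligned with STAR to mm10, and exon counts were made with HOMER, which kept 1 transcript per gene. The annotation, the strand setting and the tool versions were not given in the sources used here, so overlapping and antisense genes cannot be told apart. Samples were grouped by their titles.

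The tables were joined by symbol. Counts were scaled by TMM and tested with edgeR 4.0.16 (glmQLFit, robust, and glmQLFTest) in R 4.3.3 after filterByExpr, without a block, and p-values were adjusted by Benjamini-Hochberg over 13608 genes. The test was checked on simulated data for this comparison (200 of 13463 genes changed by 2 on the log2 scale). There, 99.5% of the changed genes were recovered and 4.78% of calls were false. Both rates describe that simulation only, because 49.1% of genes were called in the data themselves. Replicates also scattered more in BAT than in eWAT (square root of edgeR's common dispersion 0.345 against 0.149). Error rates under such unequal scatter and so many changed genes were not tested. CPM used the TMM-scaled totals, and RPKM also the exon length of the kept transcript. SE is the absolute log2 fold change divided by the square root of the quasi-likelihood F statistic, used here as its standard error. Where a group had no read, 3 counts over the group were its floor; 95% intervals of count ratios cover counting error only. Depth differed between the depots and was also evened by thinning eWAT. Alternatives were other scalings, DESeq2 1.42.0, count filters, thinning, the transcript rule, fold thresholds, a replicate block and leaving out each library. The ranking and the lists without BAT WT-2 were added after seeing the data.

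Named genes were the 12 largest changes per direction (called, no overlap, at least 5 CPM on average in the higher depot), the 10 most abundant genes per depot, up to 5 leading members and the exceptions of each list or pair, the study's own genes and the Hox genes tested. Further members were named for their known role after their values were seen. The members and lists were chosen with earlier results of these data known. Caspase-6 knockout and iWAT libraries were not used here. Some genes that the rule would name are not reported here.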

Additional observations from a re-analysis of the deposited data

How the results depend on the processing

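No named gene that was called changed direction under any alternative run. Medians of lists that lay near 0 did: that of fatty acid uptake was -0.13 with total counts, and that of adipokines was 0.001 with at least 10 counts in each library. The counts of genes higher in BAT and in eWAT were 3491 and 3539 with DESeq2, 3106 and 3368 with eWAT thinned to BAT depth, 3406 and 3805 with differing transcripts kept, and 854 and 1368 at a 4-fold minimum. Leaving out 1 library gave 2801 to 3531 genes higher in BAT and 3161 to 3889 higher in eWAT. Of 3750 values of named genes under these alternatives, 3614 kept their side of the threshold, 101 lost a call and 35 gained one, and the cause was not tested. The muscle genes Myh1, Myh2, Lmod2 and Mybpc1 were not called with DESeq2. Requiring 10 counts in each library left 1 of the mesothelium list and 5 of the positional transcription factors to be called, since genes at or near 0 in a depot are then not tested. It also left 12 chemokines and receptors and 5 mast cell genes called higher in eWAT, and gave medians of -1.09 for white identity and 1.57 for calcium cycling. Without eWAT WT-3, Mogat2 (-1.55), Slc2a1 (-0.58) and Sfrp5 (-3.01) lost their calls. Nkg7 lost its call without BAT WT-1 (-1.84), BAT WT-3 (-1.86) or eWAT WT-2 (-1.19), and Col4a3 without BAT WT-3 (1.15), eWAT WT-2 (1.11) or eWAT WT-3 (0.93). Without BAT WT-3, Hoxd8 was called higher in BAT (0.80) and Hoxa7 and Hoxc6 were not. Ccl2 was called higher in eWAT without BAT WT-1 (-1.84). Atf4 was not called without BAT WT-1 (0.52). Pfkm, Atp2a2 and Ckm were not called when any 1 eWAT library was left out, and Tbx15 without eWAT WT-1 (7.76) or eWAT WT-3 (7.99). Genes with no read in BAT could hold up to 3 counts over its libraries.

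With the replicate number as a block, 3053 genes were higher in BAT and 3502 in eWAT. The deviations of samples with the same number correlated at 0.123, 0.0722 and -0.101, and 2 of the BAT libraries correlated best with another number (0.128 and 0.152). The numbers were therefore not treated as pairs. With 3 libraries per depot, these values cannot show whether samples of the same number came from the same mouse. With the block, 10 of 16 T and B cell genes and 5 of 18 muscle genes were called.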

Other observations

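Mast cell genes were higher in eWAT, with 10 of 11 called there and 0 in BAT (median log2 fold change -2.67, or -3.26 without BAT WT-2). Tpsb2, a tryptase, was at 7.08, 14.7 and 6.08 CPM in BAT and 99.96, 81.6 and 65.3 CPM in eWAT (-3.13 ± 0.36, edgeR adjusted p = 0.000283), and Cma1, a chymase, at 6.78, 15.9 and 5.62 CPM against 70.7, 66.6 and 45.5 CPM. BAT WT-2 was the highest BAT library for both. Among 17 clock genes, 10 were higher in BAT and Npas2, a partner of BMAL1, was higher in eWAT (median 0.79). Hlf, an output factor of the clock, was at 136, 83.2 and 130 CPM in BAT and 21.3, 16.6 and 28.4 CPM in eWAT (2.40 ± 0.26, edgeR adjusted p = 0.000167). Per1 was at 21.3, 120 and 175 CPM in the BAT libraries and 162, 161 and 116 CPM in eWAT, so that BAT WT-1 stood alone, and the hour of collection of each mouse was not given in the sources used here.

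Stress genes went both ways, with 9 of 29 higher in BAT and 6 in eWAT (median -0.03; 10 and 7 without BAT WT-2). Atf3, a stress factor strong in macrophages, was at 29.8, 23.0 and 27.3 CPM in BAT and 312, 234 and 269 CPM in eWAT (-3.35 ± 0.17, edgeR adjusted p = 7.02e-06). Atf4 (0.66 ± 0.16), Atf5 (1.22 ± 0.18) and Asns (1.63 ± 0.18), of the integrated stress response, were higher in BAT, and the chaperone Hspa5 was not called (0.14 ± 0.19). S100b, a gene of Schwann cells that brown adipocytes are also known to express, was at 494, 210 and 356 CPM in BAT and 2.36, 2.05 and 1.43 CPM in eWAT (7.499 ± 0.42, edgeR adjusted p = 1.15e-05). Of 9 nerve and Schwann cell genes tested, 4 were higher in BAT and 2 in eWAT (4 and 1 without BAT WT-2, where Tubb3 lost its call), and Mbp overlapped between the depots (-0.12 ± 0.13). Of 5 hepatocyte genes tested, 2 were higher in each depot (3 in BAT and 2 in eWAT without BAT WT-2), and Alb was at no more than 7.28 CPM in any library. Gapdh stood at only 0.745 to 2.72 CPM and Cox7c at 1.03 to 7.08 CPM over the 6 libraries, low for genes that every cell uses; how the counting treated reads that match several places was not given in the sources used here.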
